A study of Mus musculus with 7 samples.

Results

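The BCL2 family genes that promote or oppose cell death were followed in endothelial cells sorted from mouse fetal lung. The family was represented by 10 genes: the survival genes Bcl2, Bcl2l1 and Mcl1, the pore-forming effectors Bax and Bak1, and the BH3-only death genes Bcl2l11, Bad, Bid, Bbc3 and Bmf. They were chosen by family membership, with earlier results of these arrays known in which Bcl2l1 stood among the genes with lower values on the arrays labelled knockout. Each gene was then represented by the probe set with 1 gene symbol that was selected on the highest mean signal over all 7 arrays. Of the 10 genes, 9 had such a probe set, and all 9 were among the 16637 genes tested. No probe set with the symbol Bax alone was found, so Bax was not analysed here.

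The series compared embryos lacking Sash1 in both gene copies (Sash1-/-) with wild-type littermates, all on a C57BL/6 background and collected at E18.5, the last days before birth. Viable lung cells that were CD31+, CD45- and CD326- were sorted, a gate meant to select endothelial cells and leave out leukocytes and epithelial cells. Marker genes of leukocytes and epithelial cells still gave signal, as listed below. Amplified RNA of the sorted cells was hybridised to 7 arrays, 3 labelled wild-type and 4 Sash1-knockout. The labels name no treatment. How the Sash1 allele was made, and whether each sample came from 1 embryo, is not stated by the labels, and the spread between arrays may in part be technical. All values are log2 signals made by the authors with RMA, in which a difference of 1 is a doubling of signal.

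The arrays were checked against their labels first. Sash1 measured 9.02, 8.73 and 8.33 in wild-type-labelled samples 1 to 3 and 8.29, 8.21, 8.68 and 8.13 in knockout-labelled samples 1 to 4. The array labelled wild-type 3 thus lay among the knockout-labelled values and the array labelled knockout 3 near wild-type 2, so every direction given here is one between labels, and results are also given without these 2 arrays. Pan-endothelial markers were measured throughout, with list means of 10.11 to 10.19 on the arrays labelled wild-type and 10.06 to 10.29 on those labelled knockout. Because these are bulk samples, fewer cells of a type and less RNA per cell cannot be told apart.

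BCL2 family proteins decide whether the outer membrane of the mitochondrion is opened, the step that commits most cells to apoptosis. BCL2, BCL-XL (encoded by Bcl2l1) and MCL1 hold the effectors BAX and BAK in check, while the BH3-only proteins bind the survival proteins, or the effectors directly, and so release or trigger the pore. Endothelial cells depend on this balance when vessels grow and regress: VEGF raises survival members such as BCL2, and the BH3-only protein BIM (encoded by Bcl2l11) takes part in the loss of surplus capillaries.

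The survival genes among the members had lower mean signals on the arrays labelled knockout, in 3 of 3 genes, by -0.22 (Bcl2) to -0.57 (Bcl2l1). The effector Bak1 differed by 0.03, and the 5 BH3-only genes were split, from -0.24 (Bid) to 0.14 (Bad), so Bid and Bcl2l11 differed about as much as Bcl2. None of the 9 members passed an adjusted p of 0.05 in limma, as was so for all genes (0% of 16637). At an unadjusted p under 0.05, 556 genes stood out, and 1 member, Bcl2l1, was among the 0.962% of genes that did so with a lower value on the arrays labelled knockout. Since Bcl2l1 was known from earlier results, nothing is read from that count. Of the 9 members, 6 had a lower mean on the arrays labelled knockout, against 45.6% of all genes tested (31.3% after median centring of each array). The median difference of the members was -0.21, beside 0.015 over all genes tested.

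Bcl2l1, the gene of the survival protein BCL-XL, measured 7.38, 7.46 and 6.91 in wild-type-labelled samples 1 to 3 and 6.43, 6.84, 6.94 and 6.51 in knockout-labelled samples 1 to 4. The arrays labelled wild-type 1 and 2 were the highest of the 7, and the labels overlapped only through wild-type 3 and knockout 3, the same arrays whose Sash1 signals went against their labels. The mean difference was -0.57 (SE 0.18, 95% confidence interval -1.0 to -0.14), which is 67.4% of the wild-type-labelled signal (49.8% to 91.0%). Leaving out 1 array at a time gave -0.74 (without wild-type 3) to -0.47 (without wild-type 2). The interval took in 0 without wild-type 1, without wild-type 2 and with the replicate number as a block. Without both wild-type 3 and knockout 3 it was -0.83 (-1.23 to -0.43; limma adjusted p = 0.273).

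Mcl1, a short-lived survival protein that cells must keep making, measured 10.20, 10.31 and 9.94 in the wild-type-labelled samples against 9.44, 10, 10.10 and 9.30 in the knockout-labelled ones. The arrays labelled knockout 1 and 4 were low, and the arrays labelled knockout 2 and 3 lay inside the wild-type-labelled range. The difference was -0.44 (SE 0.22, 95% confidence interval -0.96 to 0.08; limma adjusted p = 0.971). Without knockout 4 it was -0.30, and without wild-type 3 and knockout 3 it was -0.68 (-1.29 to -0.06). A second probe set of Mcl1 read 9.11, 9.19 and 8.21 in the wild-type-labelled samples against 8.43, 8.48, 8.84 and 8.27 in the knockout-labelled ones, a difference of -0.33 (-0.95 to 0.28). On this probe set wild-type 3 was the lowest of all arrays, so the probe sets of Mcl1 disagreed on where that array lay.

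Bcl2, the founding survival gene, measured 7, 7.37 and 7.04 in the wild-type-labelled samples against 7.13, 7.15, 6.56 and 6.83 in the knockout-labelled ones. Wild-type 2 was highest, knockout 1 and 2 lay inside the wild-type-labelled range, and knockout 3 was lowest. The difference was -0.22 (SE 0.17, 95% confidence interval -0.63 to 0.19; limma adjusted p = 0.971), and -0.10 without knockout 3 or without wild-type 2. Its second, dimmer probe set read 4.51 to 4.71 in the wild-type-labelled samples and 4.26 to 4.70 in the knockout-labelled ones, a difference of -0.20 (-0.48 to 0.09). Unlike Bcl2l1 and Mcl1, Bcl2 was not at its lowest on knockout 1 and knockout 4.

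**Figure D1:**
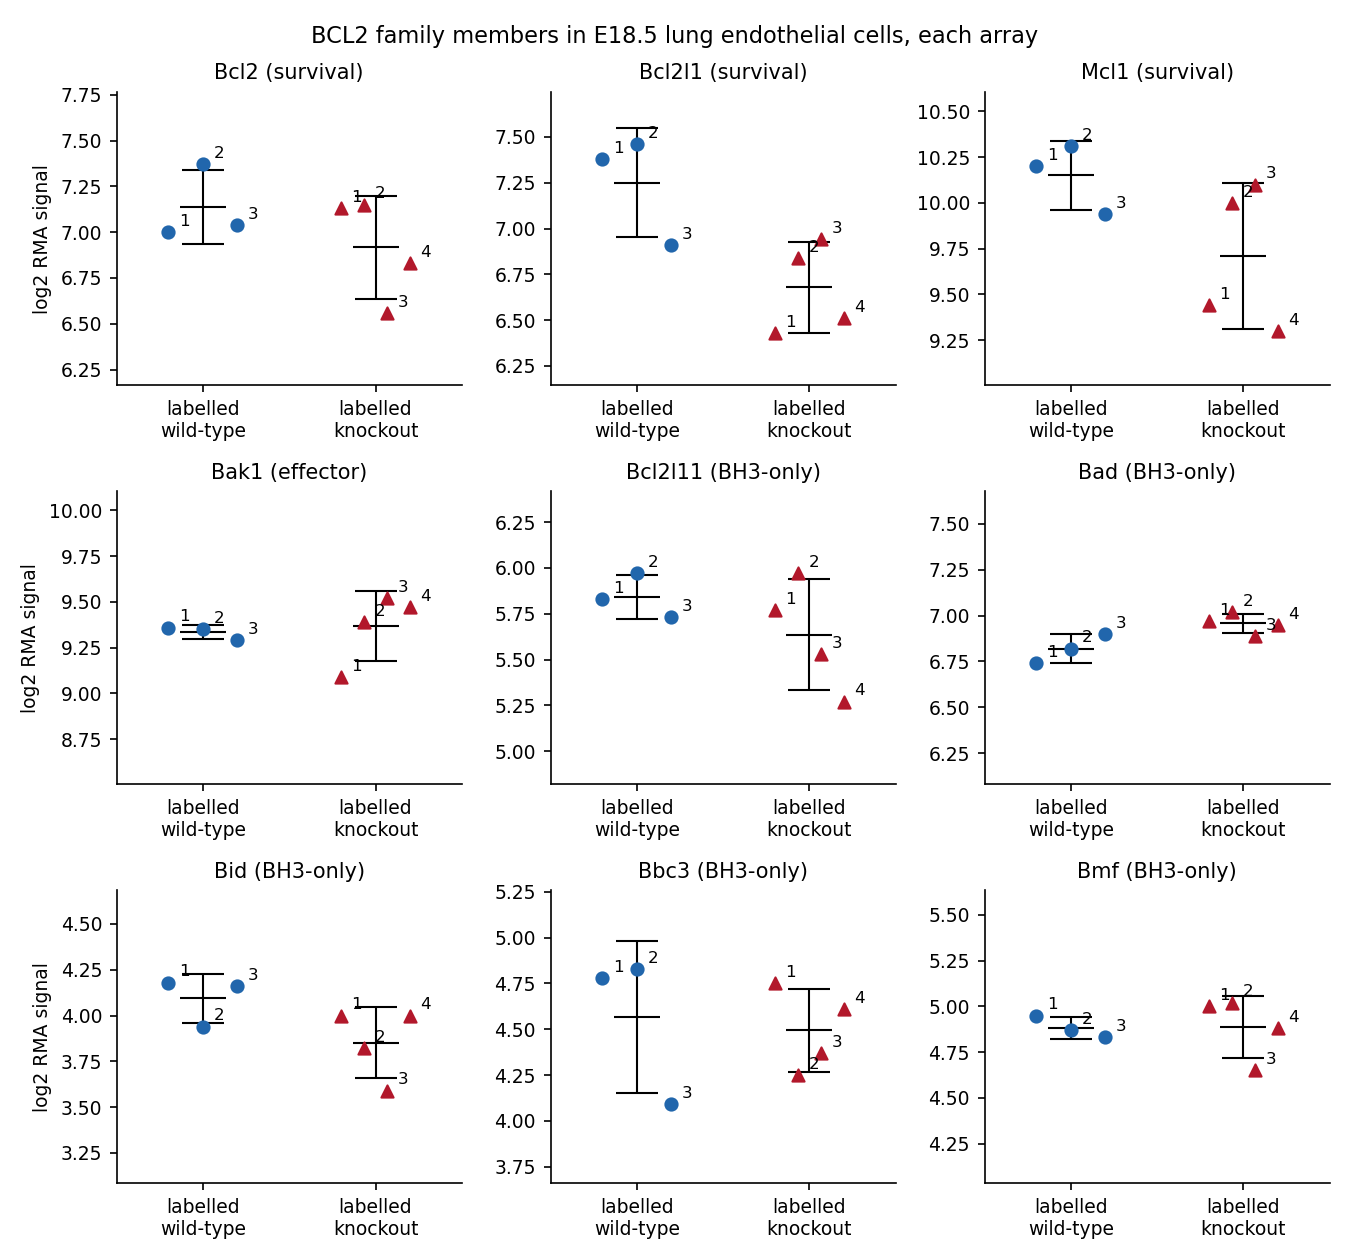
Log2 RMA signal (y axis, 1.6 log2 units in every panel) of the 9 members by label, with each array as a numbered point (circles labelled wild-type, n = 3; triangles labelled knockout, n = 4) and the mean with its SD as bars. Bcl2l1 overlaps between labels only through wild-type 3 (6.91) and knockout 3 (6.94), and Mcl1 is low on knockout 1 (9.44) and knockout 4 (9.30).

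Bak1, an effector that forms pores in the mitochondrial membrane, measured 9.36, 9.35 and 9.29 in the wild-type-labelled samples against 9.09, 9.39, 9.52 and 9.47 in the knockout-labelled ones. The wild-type-labelled values lay within 0.07 of each other, inside the wider knockout-labelled range of 0.43. The difference was 0.03 (SE 0.12, 95% confidence interval -0.25 to 0.31; limma adjusted p = 0.994), and its sign turned without knockout 3 (-0.02) and without wild-type 3 and knockout 3 (-0.04).

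Among the BH3-only genes, Bcl2l11 measured 5.83, 5.97 and 5.73 in the wild-type-labelled samples against 5.77, 5.97, 5.53 and 5.27 in the knockout-labelled ones. Knockout 1 and 2 lay within the wild-type-labelled range, and knockout 4 was lowest. The difference was -0.21 (95% confidence interval -0.61 to 0.20), and -0.09 without knockout 4.

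Bad, whose protein is held inactive by survival kinases such as AKT, measured 6.74, 6.82 and 6.90 in the wild-type-labelled samples against 6.97, 7.02, 6.89 and 6.95 in the knockout-labelled ones. Only wild-type 3 and knockout 3 overlapped, by 0.01, and in the opposite direction to Bcl2l1: Bad was the member with the largest positive difference, 0.14 (SE 0.08, 95% confidence interval -0.05 to 0.33; limma adjusted p = 0.971). Without these 2 arrays the difference was 0.20 (-0.02 to 0.42). It was also the member with the narrowest range over all arrays, 0.28.

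Bid, which links death receptors to mitochondria once caspase-8 cuts it, measured 4.18, 3.94 and 4.16 in the wild-type-labelled samples against 4, 3.82, 3.59 and 4 in the knockout-labelled ones. Wild-type 1 and 3 exceeded every knockout-labelled array, wild-type 2 did not, and the difference was -0.24 (95% confidence interval -0.55 to 0.07). Without knockout 3, its lowest array, this was -0.15.

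Bbc3, which encodes PUMA, a target of p53, measured 4.78, 4.83 and 4.09 in the wild-type-labelled samples against 4.75, 4.25, 4.37 and 4.61 in the knockout-labelled ones. Wild-type 3 was the lowest of all arrays and wild-type 2 the highest, so the whole range of 0.74 lay within 1 label. The difference was -0.07 (SE 0.21, 95% confidence interval -0.57 to 0.43; limma adjusted p = 0.993), with a sign that turned without wild-type 1 (0.04), wild-type 2 (0.06) or knockout 2 (0.01). A list of p53 target genes averaged 6.91, 6.72 and 6.32 in the wild-type-labelled samples against 6.31, 6.43, 6.70 and 6.34 in the knockout-labelled ones, and 0 of its 11 tested genes passed.

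Bmf, a BH3-only gene linked to loss of adhesion, measured 4.95, 4.87 and 4.83 in the wild-type-labelled samples against 5, 5.02, 4.65 and 4.88 in the knockout-labelled ones. The wild-type-labelled values lay inside the knockout-labelled range, and the difference was 0.00 (95% confidence interval -0.26 to 0.27), of no stable sign: it was -0.04 without knockout 2, -0.03 without knockout 1, -0.02 without wild-type 3 and -0.0025 without wild-type 2. Bid, Bbc3 and Bmf were dim, with every value below the median tested gene of each array (5.30 to 5.41), and RMA compresses differences of dim probe sets.

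**Figure D2:**
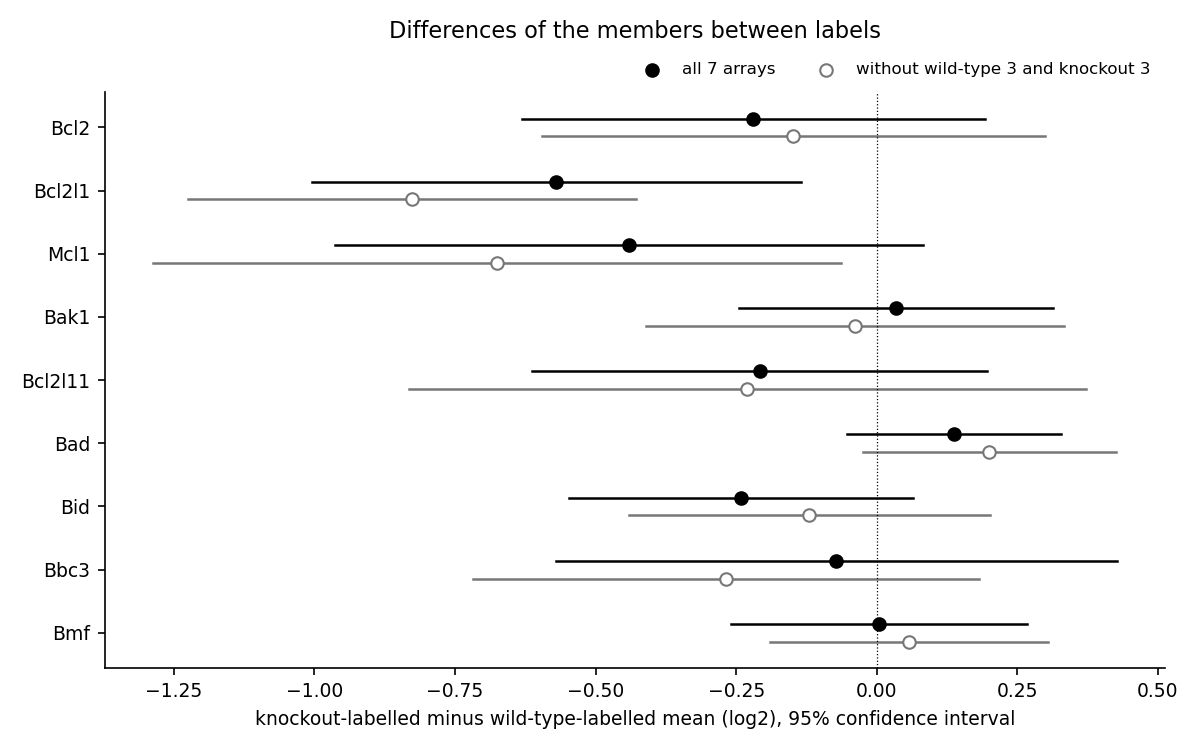
Difference between knockout-labelled and wild-type-labelled means (x axis, log2) for each of the 9 members, with 95% confidence intervals from limma over all 7 arrays (filled) and with wild-type 3 and knockout 3 left out (open). With all arrays only the interval of Bcl2l1 (-1.0 to -0.14) leaves out 0, which is lost without wild-type 1 or wild-type 2, and with both arrays left out also that of Mcl1 (-1.29 to -0.06) does.

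The overlap between labels was counted over all members. With all 7 arrays, 0 of 9 members were lower on every knockout-labelled than on every wild-type-labelled array, as were 0.679% of all genes tested. Without wild-type 3 and knockout 3, Bcl2l1, Mcl1 and Bbc3 were lower without overlap, beside 10.9% of all genes tested, and Bad was higher without overlap, beside 13.1%. With 2 arrays against 3, 0 genes passed the adjusted threshold in limma. Leaving out these arrays followed from their Sash1 values, which earlier results had shown. The arrays that were left also differed by label in the list means of steroid response, stress, leukocyte, cardiac muscle and p53 target genes, as given below.

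The members were then compared across single arrays, as deviations from each gene's mean over the 7 arrays. The survival genes averaged 0.25, 0.44 and 0.02 in the wild-type-labelled samples against -0.28, 0.05, -0.08 and -0.40 in the knockout-labelled ones. Knockout 2 (0.05) thus lay above wild-type 3 (0.02). The 5 BH3-only genes averaged 0.10, 0.09 and -0.06 against 0.10, 0.02, -0.19 and -0.06, a narrower range that overlapped between labels. On the array labelled knockout 1, the survival mean was -0.28 and the BH3-only mean 0.10. Bcl2 was at 0.12 there, beside -0.49 for Bcl2l1 and -0.46 for Mcl1. On knockout 3 the BH3-only mean was the lower, with Bcl2 at -0.45 beside 0.02 for Bcl2l1 and 0.20 for Mcl1. The survival genes thus did not move together on either array.

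The profile closest to that of Bcl2l1 among the members was that of Mcl1, by the root mean square distance between deviations over 7 arrays (0.145 log2 units, where the Bcl2l1 profile itself had a root mean square deviation of 0.362). Bcl2 and Bcl2l11, a survival gene and a death gene, were each other's nearest members (0.162), as were Bad and Bmf (0.127). The distance between Bad and Bmf exceeded the root mean square deviation of each (0.0877 and 0.116), so both profiles were flat, while those of Bcl2 (0.239) and Bcl2l11 (0.232) were larger than their distance. Over all genes tested, the 5 nearest to Bcl2l1 were the gene model Gm17695 (0.0963), Fam160a1 (0.0988), the amino acid transporter gene Slc38a2 (0.102), Stt3b, a catalytic subunit of protein N-glycosylation (0.102), and the transcription factor gene Klf10 (0.106). Slc38a2 measured 9.73, 9.81 and 9.01 in the wild-type-labelled samples against 8.65, 9.08, 9.08 and 8.89 in the knockout-labelled ones, so here too wild-type 1 and 2 were high, wild-type 3 was near the knockout-labelled arrays and knockout 1 was lowest. These distances describe 7 arrays and were chosen from many genes, so they carry no test.

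Marker and state lists differed between the same arrays. Glucocorticoid response genes, a class that steroid hormone induces, averaged 8.80, 8.87 and 7.25 in the wild-type-labelled samples against 7.66, 7.39, 8.50 and 7.07 in the knockout-labelled ones, with 10 of 10 genes lower on average on the arrays labelled knockout. Immediate early and dissociation stress genes averaged 8.64, 8.45 and 7.19 against 8.18, 7.19, 8.89 and 6.71, with 16 of 19 lower. The arrays with the highest Sash1 signals, wild-type 1 (9.02), wild-type 2 (8.73) and knockout 3 (8.68), were also the highest on both lists. As deviations from the 7-array mean, the stress genes were at 0.75, 0.56 and -0.70 in wild-type 1 to 3 and at 0.29, -0.71, 1.00 and -1.18 in knockout 1 to 4. They were thus high with Bcl2l1 and Mcl1 on wild-type 1 and 2 and low with them on knockout 4, and on the other side of the mean on knockout 1, where the glucocorticoid list was at -0.27. Without wild-type 3 and knockout 3, both lists were higher on every wild-type-labelled than on every knockout-labelled array. The same held for the leukocyte, cardiac muscle and p53 target list means, while the lung epithelial and cell cycle means overlapped. In the results without wild-type 3 and knockout 3, label therefore cannot be told apart from these states and marker levels.

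Leukocyte markers averaged 6.49, 6.24 and 5.78 in the wild-type-labelled samples against 6.08, 5.76, 6.21 and 5.18 in the knockout-labelled ones (17 of 18 lower), and lung epithelial markers 8.19, 7.83 and 7.11 against 7.91, 7.35, 8.02 and 6.41 (15 of 19 lower). Ptprc, which encodes CD45, ranged from 4.45 to 4.85 in the wild-type-labelled samples and from 3.51 to 4.72 on those labelled knockout, and Epcam, which encodes CD326, from 4.65 to 5.31 and from 4.06 to 5.19. Cardiac muscle genes averaged 5.30, 5.94 and 5.38 against 5.21, 5.25, 5.25 and 5.09, with 8 of 10 lower and a median difference of -0.355. Their mean, like that of the survival genes, was highest on wild-type 2 and lowest on knockout 4. Of the single survival genes, only Mcl1 was lowest on knockout 4. Cell cycle genes averaged 6.01, 6.58 and 6.47 against 6.29, 6.78, 6.22 and 6.99 (16 of 17 higher), and 0 genes of these 6 lists passed in limma. Knockout 4 was lowest for the steroid, stress, leukocyte and epithelial lists and for Mcl1 and Bcl2l11. The part of these cell types and states in the members' values was not tested.

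**Figure D3:**
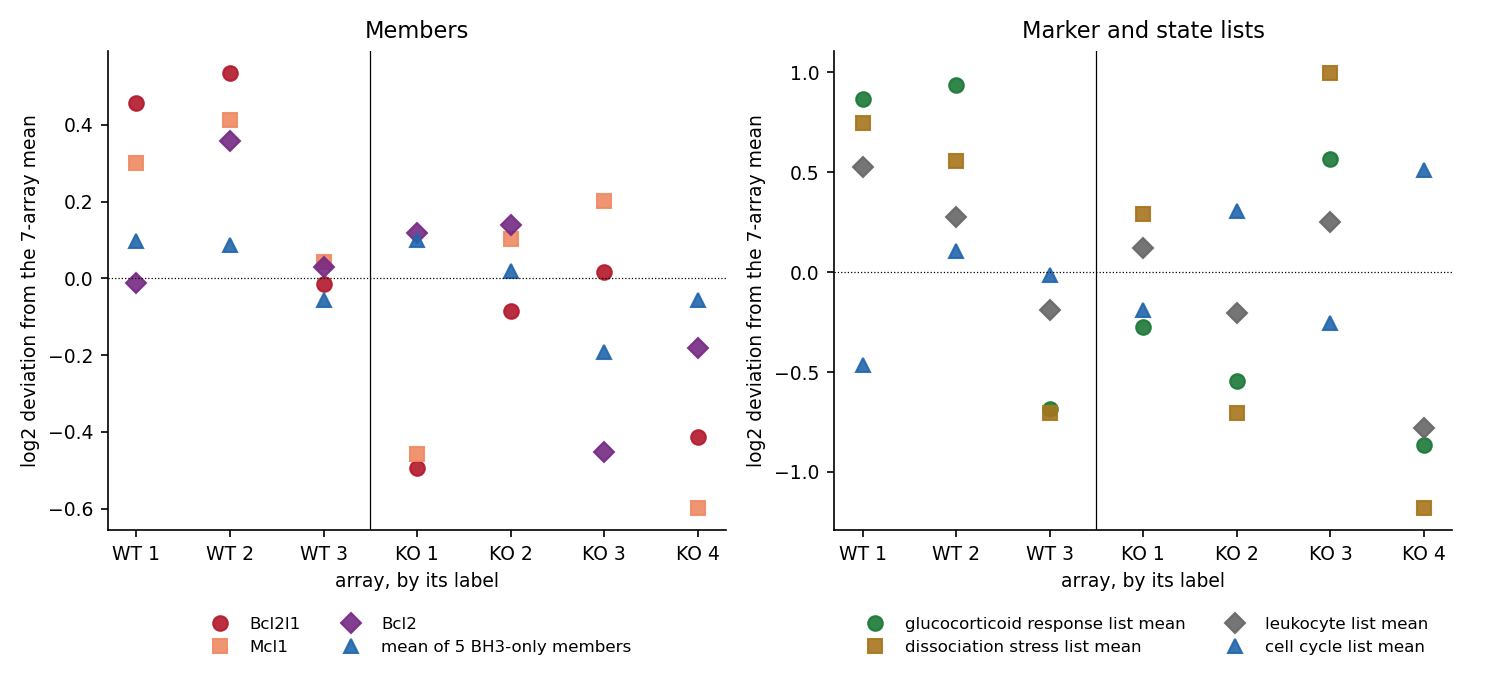
Deviation from the 7-array mean in log2 units (y axis) on each array (x axis, WT labelled wild-type and KO labelled knockout, separated by a line) for members (left) and for the means of 4 marker and state lists (right). Bcl2l1 and Mcl1 stand high on WT 1 and WT 2 and low on KO 1 and KO 4, and the stress list is also high on WT 1 (0.75) and WT 2 (0.56) and low on KO 4 (-1.18), but highest on KO 3 (1.00).

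The rest of the death pathway was read from lists of related genes. Among the other BCL2 family genes, 11 of 15 had a probe set with 1 symbol and 7 were bright enough to test. Of these, 6 had lower means on the arrays labelled knockout and 1, Bcl2l2, a higher mean (0.03). The median difference was -0.12, and 0 passed. Bcl2a1a, a survival member found in blood cells and activated endothelium, measured 5.66, 5.43 and 5.45 in the wild-type-labelled samples against 5.43, 4.98, 4.90 and 5.14 in the knockout-labelled ones, where only knockout 1 reached the wild-type-labelled range. Its difference was -0.40 (95% confidence interval -0.74 to -0.06; limma adjusted p = 0.971). Bcl2a1a has near-identical copies in the mouse genome, so its signal cannot be assigned to it alone. Pmaip1, which encodes the BH3-only protein NOXA, differed by -0.13 (-0.55 to 0.30), and Bcl2l13 by -0.12 (-0.58 to 0.34).

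Genes acting after the mitochondrion, from cytochrome c to the caspases and their inhibitors, had no common direction: 9 of 15 were lower and 6 higher on the arrays labelled knockout, with a median of -0.03, and 0 passed. Aifm1, which encodes a mitochondrial flavoprotein released in cell death, measured 5.25, 5.33 and 5.33 in the wild-type-labelled samples against 5.51, 6.02, 5.51 and 5.61 in the knockout-labelled ones. These values were higher without overlap, as were 1.77% of all genes tested, with a difference of 0.36 (95% confidence interval 0.03 to 0.69; limma adjusted p = 0.971). Dffa, the inhibitor of the nuclease that cuts DNA in apoptosis, differed by 0.32 (0.01 to 0.62), or 0.48 without wild-type 3 and knockout 3. Casp9, the first caspase of the apoptosome, differed by 0.21 (-0.04 to 0.46), or 0.14 without wild-type 2. Aifm1, Dffa and Casp9 were named for the smallest unadjusted p of the list in limma. The lowest difference of the list was that of Xiap, -0.29.

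The death receptor arm was split as well, with 4 of 9 genes lower and 5 higher, a median of 0.02, and 0 that passed. Its adaptor gene Fadd differed by 0.30 (95% confidence interval 0.01 to 0.59). The receptor gene Tnfrsf1a differed by 0.17 (-0.02 to 0.37) and was higher without overlap between labels, as were 1.77% of all genes tested. The initiator caspase gene Casp8 differed by 0.31 (-0.12 to 0.73), which was 0.16 without wild-type 2 and 0.49 without wild-type 3. These 3 genes were named for the smallest unadjusted p of the arm in limma. The largest difference of the arm went the other way, Fas at -0.36, and Tnfrsf10b was at -0.24. Tnfrsf1a measured 8.41, 8.36 and 8.50 in the wild-type-labelled samples against 8.60, 8.70, 8.55 and 8.54 in the knockout-labelled ones. Casp8 was at 7.71, 7.50 and 8.15 against 8.05, 8.37, 8.04 and 7.91, so wild-type 3 stood among the knockout-labelled arrays, as it did for Sash1 and Bcl2l1.

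Of 23 tested regulators of the family, such as FOXO and STAT factors, kinases, VDAC channels and ubiquitin ligases, 13 were lower and 10 higher, with a median of -0.02, and 0 passed. Stat3, a transcription factor known to raise Bcl2l1 and Mcl1, measured 8.38, 8.29 and 8.03 in the wild-type-labelled samples against 8.08, 8.10, 7.86 and 7.73 in the knockout-labelled ones, a difference of -0.29 (95% confidence interval -0.61 to 0.02; limma adjusted p = 0.971). The kinase gene Gsk3b, whose product marks MCL1 for degradation, differed by -0.13 (-0.33 to 0.06), or by -0.075 after median centring. Ywhaz, a 14-3-3 protein that holds phosphorylated BAD in the cytosol, differed by -0.16 (-0.39 to 0.08), by -0.10 without knockout 1 or after median centring, and by -0.06 as the mean of its probe sets.

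**Figure D4:**
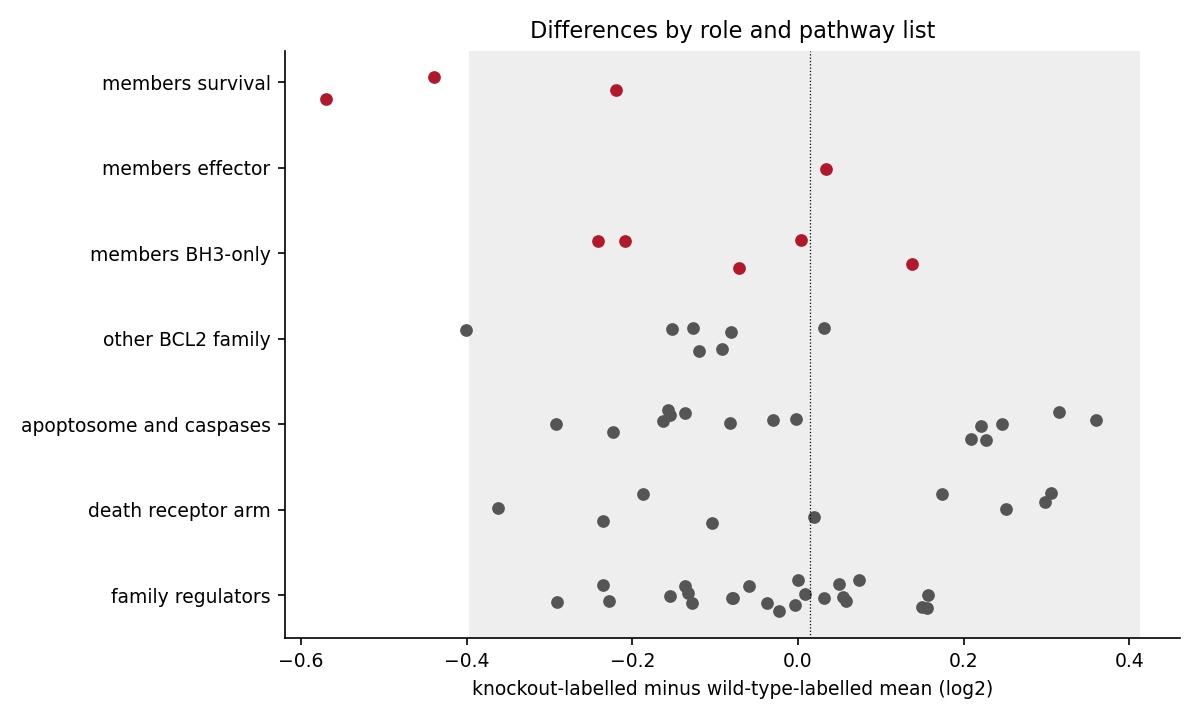
Difference between knockout-labelled and wild-type-labelled means (x axis, log2) of each tested gene (points) by role and list (y axis), where the grey band holds the middle 95% of all 16637 genes (-0.40 to 0.41) and the dotted line is their median (0.015). Of the members only Bcl2l1 (-0.57) and Mcl1 (-0.44) lie outside the band. Of the other BCL2 family genes 6 of 7 are lower, with Bcl2a1a (-0.401) just past the band edge (-0.396). The apoptosome, death receptor and regulator lists spread to both sides of the line.

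The DNA before the start sites was read for Bcl2l1 and Mcl1, the survival genes with the closest profiles, and for the genes with a forkhead match. RefSeq promoter windows (GRCm38.p6) were found for 10 of 10 genes, 18 windows in all, and 250 bases before each start were searched on both strands for an ETS core (CCGGAAGT), a STAT motif (TTCNNNGAA), AP-1 (TGAGTCA), an E-box (CACGTG), CRE (TGACGTCA), a GC box (GGGCGG) and a forkhead motif (TGTTTAC); no motif searched contains another. The last 100 bases before the outermost start in the table are shown for Bcl2l1 (chr2:152831729-152831828, minus strand) and Mcl1 (chr3:95658621-95658720, plus strand). For Bcl2l11 (chr2:128125788-128125847, plus strand) and Bbc3 (chr7:16310068-16310127, plus strand), BH3-only genes that FOXO factors are known to induce, 60 bases around the forkhead match are shown. Capitals mark every match of these motifs in either orientation: a GC box in Mcl1, the forkhead motif and then a GC box in Bcl2l11, and the forkhead motif in Bbc3.
Bcl2l1: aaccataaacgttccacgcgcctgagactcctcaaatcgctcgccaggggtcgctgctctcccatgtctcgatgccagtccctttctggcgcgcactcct
Mcl1: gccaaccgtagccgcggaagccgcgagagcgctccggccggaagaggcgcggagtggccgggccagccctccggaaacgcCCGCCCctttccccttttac
Bcl2l11: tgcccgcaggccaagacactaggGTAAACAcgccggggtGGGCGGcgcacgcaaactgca
Bbc3: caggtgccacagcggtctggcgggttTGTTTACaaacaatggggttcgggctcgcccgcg

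The GC box was found in 10 of the 18 windows, which belong to 7 genes, and in 32.7% of 32841 windows of all genes. This motif is made of G and C alone, and the member windows that held it had 54% (Bax) to 81.6% (Bbc3) G and C. The comparison was not matched for base composition, so no excess is read from it. The forkhead motif was found in 2 of 18 windows and in 3.17% of all. None of the 3 windows of Bcl2l1 held any of the motifs, and the Mcl1 window held a GC box alone, so these genes shared none of them. The windows of 1 gene can overlap, as those of Bbc3 do. These counts describe letters in short windows and say nothing of which factors act there. Foxo1 and Foxo3 differed by 0.05 and 0.03 between labels (limma adjusted p = 0.985 and 1).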

How the data were processed

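The authors deposited 1 log2 value per probe set and array (41345 probe sets), made with RMA in Affymetrix Expression Console 1.1, per the submitters' processing notes. They were taken as log2 from their range. RMA brings the arrays' distributions close together, so a shift shared by all genes may go unseen. The array medians over all probe sets still ran from 3.86 (knockout 2) to 4.03 (wild-type 3). With median centring, Bcl2l1 differed by -0.51 and Mcl1 by -0.38. Precision is limited by the number of arrays: the median gene's 95% interval reached 0.345 to either side. Probe sets were named through GEO's platform annotation and a RefSeq gene table (GRCm38.p6; 99.2% of identifiers found). 23521 had 1 symbol (22180 genes), 1814 several and 16010 none listed. The brightest probe set stood for a gene, and the dimmest 25% of genes (mean log2 signal under 2.98) were left out. limma 3.58.1 in R 4.3.3 (lmFit and eBayes, two-sided, label as the only term) was fitted over all 16637 genes, with Benjamini-Hochberg adjustment and a threshold of 0.05. The code was also run on simulated data with independent noise and changes larger than those of the members. That run therefore does not show whether differences of the members' size would be found.

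Members and lists were chosen with earlier results of these data known. Named were all members, Sash1, Pecam1, Ptprc and Epcam where a result needed them, 3 genes of smallest unadjusted p per pathway list, and nearest profiles; Slc38a2 values and the FOXO genes were added after their values were seen. Pan-endothelial, leukocyte, epithelial, glucocorticoid, stress, cardiac muscle, cell cycle and p53 target lists are given as means. Fibroblast and mural (0 of 14 passed) and erythroid lists (0 of 3) were fitted too. Alternatives covered the filter, normalization, moderation, array weights, probe sets, the replicate number as a block, sex, the threshold and arrays left out.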

Additional observations from a re-analysis of the deposited data

Results flagged for a closer look

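In the 4 arrays labelled knockout, no member had a value standing apart from the other arrays by Dixon's test at 95%, which chance flags in about 1 in 20 groups. Of 25 genes examined, 2 did, both on the array labelled knockout 4: Ptprc, at 3.51 against 4.57 to 4.72 on the other 3, and Epcam, at 4.06 against 5.14 to 5.19. Mcl1 and Bcl2l11 were also lowest on this array, at 9.30 and 5.27.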

How the results depend on the processing

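Under every alternative run, 0 genes passed the adjusted threshold in limma, and 5 to 7 of the tested members had lower means on the arrays labelled knockout. Unadjusted p-values fell under 0.05 for 556 genes over all arrays, for 225 with the replicate block, 295 to 1314 with 1 array left out (fewest without wild-type 2, most without wild-type 3), 1310 with array weights and 1779 without wild-type 3 and knockout 3. Bcl2l1, Mcl1, Bcl2, Bcl2l11, Bid and Bad kept their direction in all of them, Bcl2l1 between -0.83 and -0.47. Bmf turned to -0.0094 with array weights, and Bak1 to -0.038 and Bcl2l13 to 0.12 without wild-type 3 and knockout 3. Leaving out 1 array gave -0.04 to 0.0833 for Bmf, -0.31 to 0.06 for Bbc3, -0.0167 to 0.127 for Bak1, -0.23 to 0.0067 for Bcl2l13 and -0.33 to 0.08 for Pmaip1. Bid was not tested when the dimmest 50% of genes were left out. The causes were not tested. Arrays sharing a replicate number deviated in opposite directions (correlations of -0.18, -0.20 and -0.55 over genes), so the numbers were not taken to pair them. With the replicate block, in which knockout 4 has no partner and adds nothing, Bcl2l1 differed by -0.51, Mcl1 by -0.30 and Bak1 by 0. Bid, Bbc3 and Bmf were dim. The planned fits for Bax were not run, as no probe set was assigned to it alone.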

Other observations

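The sex of the embryos was read from Xist and Y-linked genes: the arrays labelled wild-type 1 and knockout 2 were male and the other 5 female. With sex as a covariate Bcl2l1 differed by -0.55, Mcl1 by -0.42 and Bcl2 by -0.21. On the male arrays Bcl2l1 measured 7.38 (labelled wild-type) and 6.84 (labelled knockout), and on the female arrays 7.46 and 6.91 against 6.43, 6.94 and 6.51.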
